A study of Mus musculus with 32 samples.

Results

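The genes described here are 10 that mark a spinal motor neuron: 4 of the cholinergic machinery (Chat, Slc18a3, Slc5a7, Ache), the calcitonin gene-related peptide genes Calca and Calcb, the homeodomain factors Mnx1 and Isl1, and Mmp9 and Chodl, which mark fast motor neurons. They were chosen by name, as every non-control probe assigned to one of the 10, through the accession in the array files (13 probes) or the symbol (1 probe). By this rule 14 of 41174 probes and 10 of 27573 genes or single unnamed probes were members. The Mnx1 probe carries only an accession as its name in the files. The study set female transgenic mice against nontransgenic littermates on 2-colour oligonucleotide arrays, with RNA from cells cut by laser from the lumbar spinal cord. SODmn compared motor neurons, and SODgl the glial cells around them, of B6SJL-Tg(SOD1-G93A)1Gur mice, which carry a human SOD1 gene with an amyotrophic lateral sclerosis mutation, with B6SJL littermates at 8 weeks. TAUmn and TAUgl did the same for B6D2F1-Tg(TAU-P301L) mice, which carry a mutant human tau gene, and B6D2F1 littermates at 16 weeks. Each of the 4 comparisons had 4 littermate pairs, and each pair had 2 arrays with the dyes exchanged, so the pair is the replicate (n = 4). Model, strain background and age differ together between SOD and TAU and cannot be told apart. The promoter that drives each transgene is not given in the sources used here. In all, 500 cells were taken from each mouse, on 12 µm sections stained with cresyl violet, so cells were picked by shape and place and not by a marker of their type.

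Motor neurons make acetylcholine with choline acetyltransferase (Chat), load it into vesicles with the vesicular transporter (Slc18a3), and take choline back up through the high-affinity transporter (Slc5a7) after acetylcholinesterase (Ache) has split the transmitter in the cleft. Many also hold calcitonin gene-related peptide, made from Calca by alternative splicing and from the neighbouring gene Calcb. Mnx1 and Isl1 set motor neuron identity in the embryo. Mmp9 is a secreted matrix protease, and Chodl a membrane lectin-like protein.

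Values are log2 intensities or log2 ratios of transgenic over control. A probe counted as measured in an RNA extract when it was well above background on both of that extract's arrays. The share of probes above background ran from 14.7% to 54.8% over motor neuron arrays and from 8.48% to 64.1% over glia arrays. After turning one array, the 2 dye-swapped arrays of a pair correlated between -0.74 and 0.67 over probes, and 5 of 16 pairs lay below 0 (pairs 1 and 2 of SODgl, 3 of TAUmn, and 1 and 3 of TAUgl). In those 5 pairs the 2 arrays leaned to the same dye more than to the same mouse, so the direction of their ratios is not settled. A wrong dye label and a strong dye effect cannot be told apart. Motor neuron arrays were read with scanner software version 8.5.1.1 and glia arrays with 9.5.1.1, per the file headers. No scan day held arrays of both cell types. Cell type, software version and scan day therefore cannot be told apart. In captured cells, fewer cells of a type and less RNA per cell cannot be told apart either.

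The label of the cells was only partly borne out by these genes. Slc5a7 was measured in all 32 extracts, Calca and Calcb each in 31 and Isl1 in 29. Chat was measured in 13 of 32 extracts, 4 of 8 from control motor neurons and 2 of 8 from control glia. Slc18a3 was measured in 7 of 32, 3 of 8 from control motor neurons and 1 of 8 from control glia. Ache was measured in 7 of 8 control motor neuron extracts and 3 of 8 control glia extracts, and Mmp9 in 7 of 8 and 0 of 8. Mnx1 was measured in 4 of 8 extracts of each control cell type, and the brighter Chodl probe in 4 of 8 and 5 of 8. The enzyme and the vesicle transporter that define a cholinergic neuron were thus at or near background in both cell types on these arrays, while choline uptake and peptide genes were bright.

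The promoters of 5 members are shown because these genes differ most in how they were seen here: Calca and Slc5a7 were bright and higher in motor neurons, Ache was dim, and Chat and Slc18a3 were near background. Each is the 250 bases before 1 listed transcript start in RefSeq (GRCm38.p6), 5′ to 3′ on the gene's strand. The Calca window lies inside the full span of its gene, and those of Slc5a7 and Ache reach slightly into theirs. A window was listed for 8 of the 10 members.
Calca, chr7:114636358-114636607, minus strand: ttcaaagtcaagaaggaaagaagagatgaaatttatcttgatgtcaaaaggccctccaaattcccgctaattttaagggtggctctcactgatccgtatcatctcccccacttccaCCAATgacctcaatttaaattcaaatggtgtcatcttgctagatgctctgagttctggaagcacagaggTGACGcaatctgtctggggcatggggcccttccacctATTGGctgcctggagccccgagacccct
Slc5a7, chr17:54299035-54299284, minus strand: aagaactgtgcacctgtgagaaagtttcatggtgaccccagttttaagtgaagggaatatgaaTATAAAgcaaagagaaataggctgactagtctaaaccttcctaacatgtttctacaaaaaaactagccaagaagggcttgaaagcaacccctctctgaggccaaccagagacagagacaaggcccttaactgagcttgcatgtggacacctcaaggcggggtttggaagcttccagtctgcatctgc
Ache, chr5:137288004-137288253, plus strand: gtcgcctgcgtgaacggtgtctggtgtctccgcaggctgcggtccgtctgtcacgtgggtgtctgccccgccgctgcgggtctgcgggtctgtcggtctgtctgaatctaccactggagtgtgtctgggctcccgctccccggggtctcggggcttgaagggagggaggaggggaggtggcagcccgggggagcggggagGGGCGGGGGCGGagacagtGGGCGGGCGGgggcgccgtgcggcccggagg
Chat, chr14:32465910-32466159, minus strand: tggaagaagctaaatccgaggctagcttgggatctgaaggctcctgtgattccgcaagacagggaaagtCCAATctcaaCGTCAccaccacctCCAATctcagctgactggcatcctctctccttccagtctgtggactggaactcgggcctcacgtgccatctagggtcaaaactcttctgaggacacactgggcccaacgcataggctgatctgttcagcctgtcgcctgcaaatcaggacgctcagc
Slc18a3, chr14:32464851-32465100, minus strand: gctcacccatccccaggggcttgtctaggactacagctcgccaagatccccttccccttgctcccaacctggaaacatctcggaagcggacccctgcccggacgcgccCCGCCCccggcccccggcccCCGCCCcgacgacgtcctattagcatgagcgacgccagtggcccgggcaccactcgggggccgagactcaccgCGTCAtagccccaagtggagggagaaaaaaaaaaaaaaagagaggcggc
Capitals mark matches on either strand to the TATA box letters TATAAA, the GC box GGGCGG, the CCAAT box CCAAT and the cyclic AMP response element core TGACG. Of 32851 promoter windows of the same length, 12.4% held TATAAA, 32.7% GGGCGG, 33.8% CCAAT and 17.8% TGACG. The homeodomain core TAATTA, held by 4.84% of windows, matched none of the 5. Ache held 4 GC boxes, of which the last 2 overlap. Slc18a3 held 2 GC boxes and 1 response element core, Chat and Calca each 2 CCAAT boxes and 1 response element core, and Slc5a7 1 TATA match. A match describes the letters only. The Slc18a3 gene (chromosome 14, 32462437 to 32464850) lies inside the Chat gene (32408203 to 32465909) on the same strand. Calca (114625981 to 114636910) and Calcb (114716555 to 114723368) lie near each other on chromosome 7.

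The first comparison asked where the members were expressed, in control motor neurons against control glia. Both peptide genes and the choline transporter were higher in motor neurons and Mnx1 was lower, each measured in at least 4 of 8 extracts of both cell types. Ache and Mmp9 were called higher too, but like Chat they reached the filter through motor neurons only, so a gene with a low signal in glia had to differ to be tested. Of the 9 members tested, 5 were called higher and 1 lower by limma at an adjusted p of 0.05 over 13053 genes. Among all genes 37.2% were called, 24.9% higher and 12.3% lower in motor neurons. Of the 6 members measured often enough in both cell types, 3 were called higher and 1 lower.

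**Figure D1:**
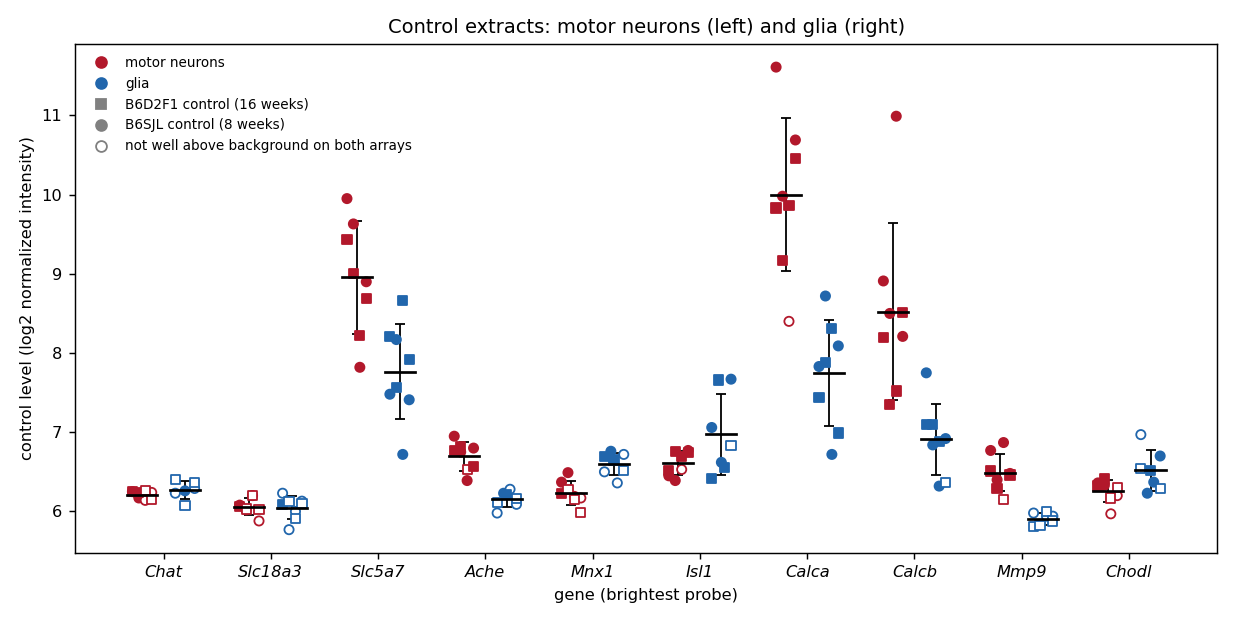
Log2 level of the 10 genes in each control extract, motor neurons to the left and glia to the right for each gene. Squares are B6D2F1 mice at 16 weeks and circles B6SJL mice at 8 weeks, open symbols are extracts not well above background on both arrays, and bars give mean ± SD. All glia symbols of Mmp9 are open, and Chat and Slc18a3 overlap almost fully between the cell types.

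Among the cholinergic genes, Slc5a7 had log2 levels from 7.82 through a median of 8.95 to 9.95 in control motor neurons, and from 6.72 through 7.74 to 8.66 in control glia. Of 8 motor neuron extracts, 6 lay above the highest glia extract. The fitted difference was 1.19 (SE 0.30, limma adjusted p = 0.00761), a 2.28-fold higher level. Ache ran from 6.39 through 6.76 to 6.95 in motor neurons and from 5.98 through 6.16 to 6.28 in 7 glia extracts. Its fitted difference of 0.55 (SE 0.09) is set against a glia group with 3 of 8 extracts above background. The p-value is left out because Ache passed the filter through motor neurons only. Chat ran from 6.14 through 6.24 to 6.26 in motor neurons and from 6.08 through 6.28 to 6.40 in 6 glia extracts. Its difference was -0.06 (95% interval -0.20 to 0.08). The p-value of Chat is left out for the same reason as that of Ache. With signals this close to background, that interval does not limit a change in Chat RNA. Slc18a3 did not reach the number of measured extracts and was not tested. It ran from 5.88 through 6.05 to 6.20 in motor neurons and from 5.77 through 6.10 to 6.23 in glia.

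The peptide genes gave the widest gaps of the 10. Calca ran from 8.40 through 9.92 to 11.61 in control motor neurons and from 6.72 through 7.86 to 8.72 in control glia, with 7 of 8 motor neuron extracts above the highest glia extract. Its difference was 2.25 (SE 0.40, limma adjusted p = 0.00116), a 4.76-fold higher level. Calcb ran from 7.35 through 8.36 to 10.99 in motor neurons and from 6.32 through 6.90 to 7.75 in glia. Its difference was 1.61 (SE 0.35, limma adjusted p = 0.00339), a 3.06-fold higher level, and the log2 difference was 1.31 without the highest motor neuron extract.

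Neither identity factor was higher in motor neurons. Mnx1 ran from 5.99 through 6.21 to 6.49 in motor neurons and from 6.36 through 6.65 to 6.76 in 7 glia extracts. It differed by -0.37 (SE 0.08, limma adjusted p = 0.0052). With 4 of 8 extracts of each control cell type above background, this signal is also close to background, and a change in Mnx1 RNA is not settled. Isl1 ran from 6.39 through 6.61 to 6.77 in motor neurons and from 6.42 through 6.83 to 7.67 in 7 glia extracts. The Isl1 difference was -0.39 (SE 0.18, limma adjusted p = 0.11). Across 25 alternatives it ran from -0.58 to -0.17, with limma adjusted p from 0.0433 to 0.596. Only 1 of them gave a call, without the third SOD glia control (-0.51, adjusted p = 0.0433).

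Of the fast motor neuron genes, Mmp9 ran from 6.15 through 6.47 to 6.87 in motor neurons and from 5.81 through 5.91 to 6.0 in glia. Its signal in glia was above background on 1 of 16 arrays, so the glia level is mostly background. The fitted difference of 0.59 (SE 0.08) is no exact size. Mmp9 passed the filter through motor neurons only, so its p-value is left out too. With glia signals raised to the lowest signal above background, the mean levels were 6.50 in motor neurons and 6.03 in glia. The brighter Chodl probe ran from 5.97 through 6.31 to 6.41 in motor neurons and from 6.23 through 6.52 to 6.97 in 7 glia extracts, a difference of -0.25 (SE 0.11, limma adjusted p = 0.083). Across 25 alternatives this difference ran from -0.87 to -0.16, with limma adjusted p from 0.025 to 0.362, and 2 gave a call. Of these, 1 left out the second SOD glia control (-0.31, adjusted p = 0.0351). The dimmer Chodl probe went the other way, as given below.

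These sizes moved with the processing. On Agilent's processed signals, both the background and the dye steps differ. The differences there were 3.26 for Calca, 3.03 for Calcb and 2.57 for Slc5a7, all still called. Mmp9 gave 1.44 and Ache 1.27. The calls of Mmp9 and Ache are left out because both passed the filter through motor neurons only. On these signals Mnx1 lost its call (-0.33, limma adjusted p = 0.302) and Chodl gained one (-0.87, adjusted p = 0.025). In the B6SJL controls alone 1 member was called, Mmp9, whose glia signal was mostly background. Slc5a7 and Calcb were not called there. They were 1.63 and 2.20 higher in B6SJL motor neurons, against 0.75 and 1.03 in the B6D2F1 controls alone.

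For 4 members there was a second, dimmer probe. The bright Calca probe reports transcript variant 2 and the dim one variant 1, per the array annotation, and the dim probe was above background in 4 of 8 control motor neuron extracts and 1 of 8 control glia extracts, with means of 6.25 and 5.92. The dim Chodl probe was above background in 4 of 8 and 1 of 8, with means of 6.26 and 5.97, while the bright one had means of 6.26 and 6.52. Both dim probes passed the filter through motor neurons only, so their differences are given with no test. Second probes of Chat and Mmp9 were too rarely measured to be tested, and differed by 0.09 and 0.19.

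**Figure D2:**
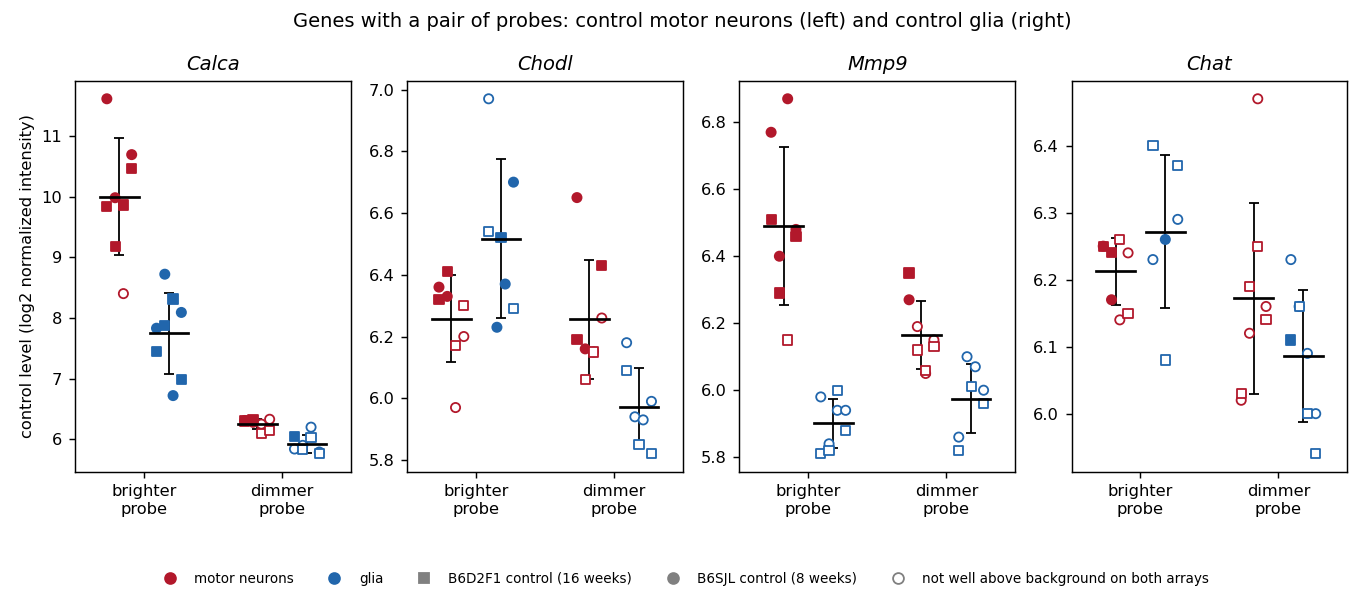
Log2 level of the genes with 2 probes in each control extract, motor neurons left of glia, with mean ± SD. The bright Calca probe separates most of the motor neuron extracts, and the dim probes have mostly open symbols in glia.

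Genes of the same pathways moved in part. Of 7 tested genes that handle choline and acetylcholine, 5 were higher in control motor neurons and 1 lower (median 0.48). Slc10a4, an orphan transporter of cholinergic vesicles, differed by 1.19 and Acly, which supplies acetyl groups, by 0.78, and the choline transporter-like gene Slc44a1 by -0.36. Of 12 acetylcholine receptor genes, 3 were higher and 2 lower (median 0.03). Chrnb2 and Chrna10, nicotinic subunits, differed by 0.90 and 0.84, and the subunits of the muscle receptor Chrne and Chrnd by -1.56 and -0.83. Of 7 genes for receptor parts and peptides related to calcitonin gene-related peptide, only Crcp was called (0.31). Of 13 genes listed as motor neuron transcription factors, 4 were higher and 5 lower (median -0.05). The higher ones were Hoxc9 (0.56), Lmo4 (0.45), Foxp1 (0.43) and Etv1 (0.24). The lower ones were Nkx6-2 (-1.50), Esrrg (-1.28), Lhx4 (-1.14) and Tbx20 (-0.62), and also Aldh1a2 (-0.40), an enzyme of retinoic acid synthesis. Of 8 motor neuron subtype genes, Spp1 alone was called (1.68).

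Markers of other cells moved with these differences. General neuron markers were higher in motor neurons for 8 of 11 tested genes (median 0.88), led by Snap25 (2.27) and Nefm (1.6). Astrocyte markers were lower for 8 of 14 (median -0.67), and oligodendrocyte markers for 6 of 11 (median -0.79). Astrocyte marker means ran from 7.35 to 8.66 in control motor neuron extracts and from 8.59 to 9.32 in control glia extracts, and neuron marker means from 8.09 to 10.08 and from 8.11 to 8.86. Interneuron markers were higher for 7 of 16 and lower for 1. The part of other cells in the members' differences was not tested.

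**Figure D3:**
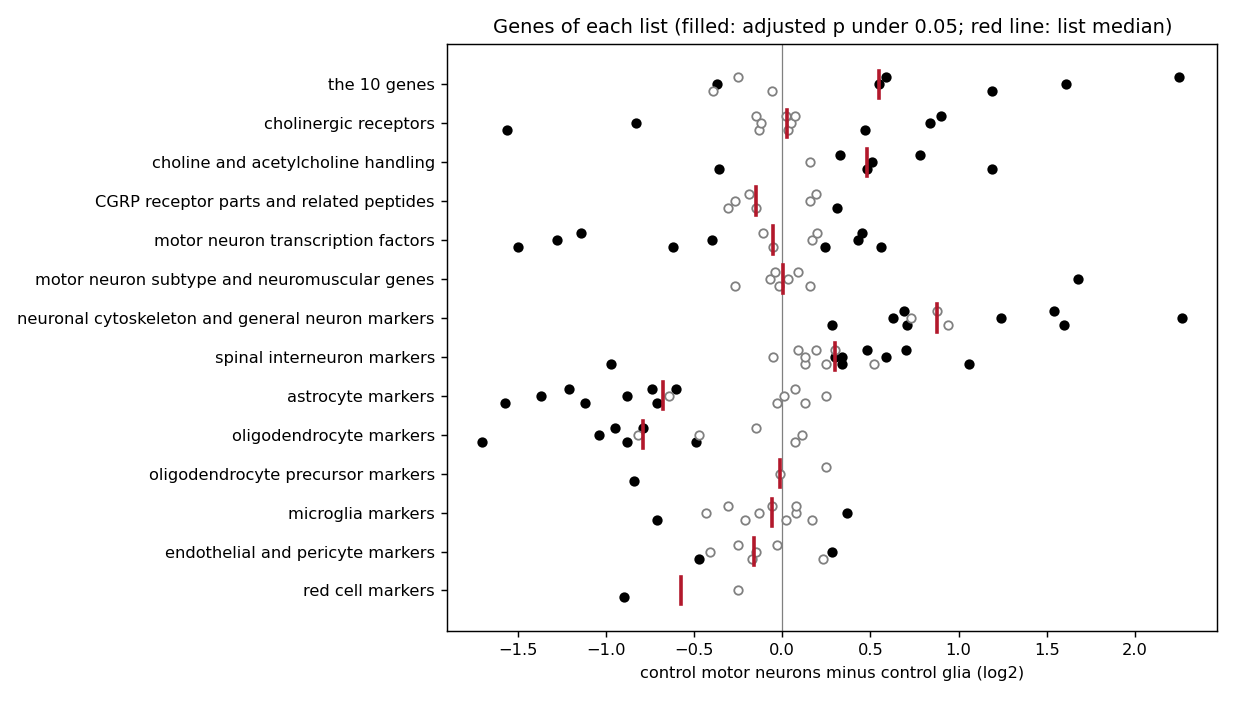
Log2 difference of control motor neurons minus control glia for each tested gene of the 10 members and the other 13 lists, filled where the limma adjusted p was under 0.05, with the list median as a red line. Neuron markers lie mostly above 0, and astrocyte and oligodendrocyte markers mostly below.

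The second comparison asked what each transgene did to the members. None of the 10 was called in any of the 4 comparisons, and no gene of the arrays was (0% called in SODmn, SODgl, TAUmn and TAUgl, among 13300, 10455, 11642 and 8922 genes). At an unadjusted p of 0.05, 1242 genes passed in SODmn, 1569 in SODgl, 399 in TAUmn and 1150 in TAUgl. By the brightest probe of each gene, members reached this in SODmn alone, with Mmp9 and Ache. The dim Chodl probe, fitted among all probes, also reached it in SODmn (limma unadjusted p = 0.00855) and was not called.

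**Figure D4:**
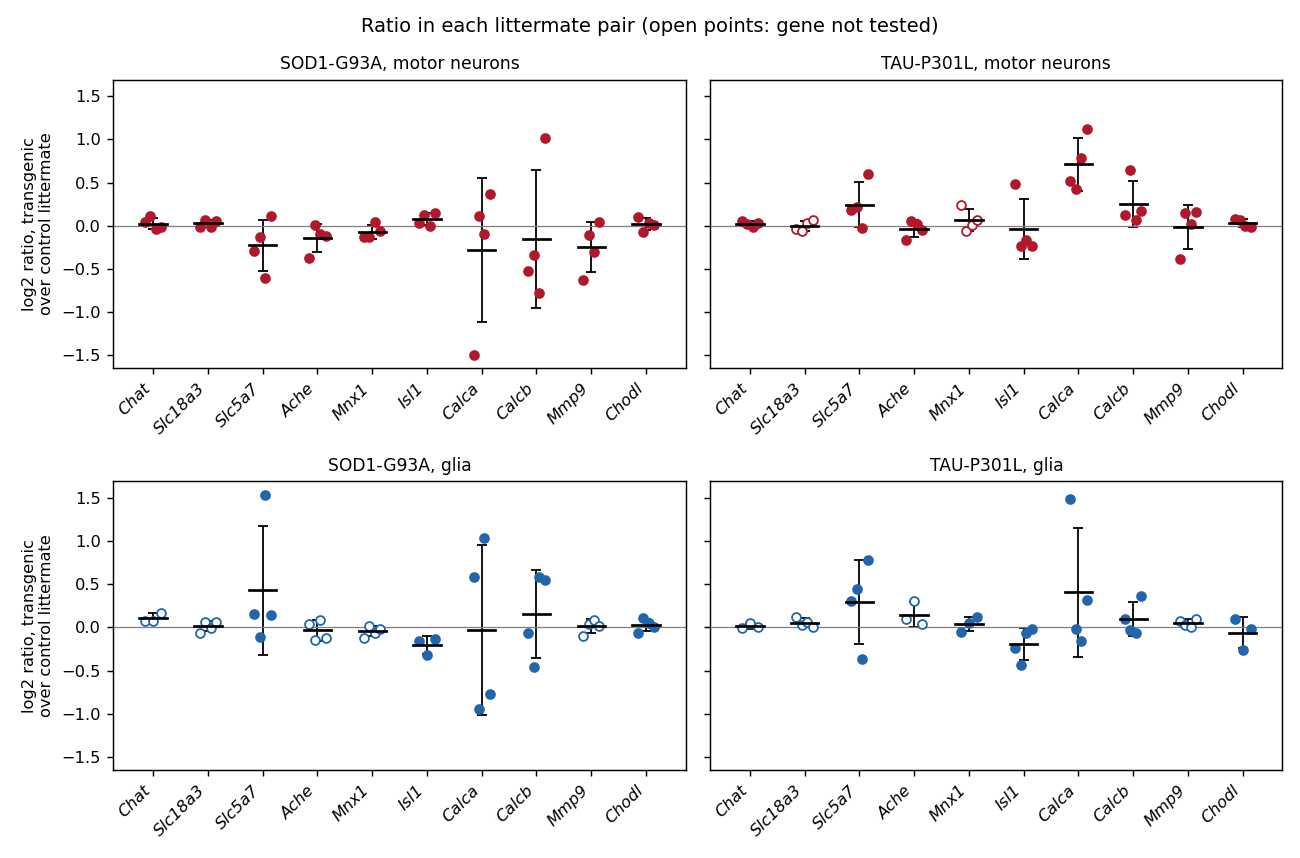
Log2 ratio of transgenic over control for each littermate pair of the 10 genes in the 4 comparisons, with mean ± SD. Open symbols are comparisons in which the gene was not tested, and Calca in TAUmn is the case with all 4 pairs well above 0.

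In SODmn all 10 members were tested, with 6 below 0 and a median of -0.11, against 0 for all genes. Mmp9 had log2 levels of 6.14, 6.29, 6.56 and 6.52 in SOD1-G93A extracts and 6.77, 6.40, 6.87 and 6.48 in their littermates. Its ratio averaged -0.25 ± 0.29 (SD, n = 4, limma adjusted p = 0.507), and the mean was -0.12 without pair 1. The second, rarely measured Mmp9 probe gave -0.04, 0.01, -0.03 and -0.06. Ache had levels of 6.58, 6.76, 6.28 and 6.68 in SOD1-G93A motor neurons and 6.95, 6.75, 6.39 and 6.80 in littermates. The Ache ratio averaged -0.15 ± 0.16 (n = 4, limma adjusted p = 0.529), and -0.07 without pair 1. The groups overlapped for both genes. Mmp9 and Ache were each above background in 2 of 4 SOD1-G93A extracts and 4 of 4 littermate extracts, so their ratios are no exact sizes.
Calca varied most between pairs, with ratios of -1.50, 0.11, -0.10 and 0.37, and its mean of -0.28 turned to 0.13 without pair 1. Calcb had ratios of -0.52, -0.34, -0.78 and 1.02, and Slc5a7 -0.29, -0.13, -0.60 and 0.11. Chat stayed between -0.04 and 0.11 and Slc18a3 between -0.01 and 0.07. Each was above background in only 2 transgenic and 2 control extracts, so these ratios do not limit a change in their RNA. The dim Chodl probe gave -0.23 ± 0.27 (limma adjusted p = 0.431), while the bright one gave 0.01. Beside these values, 11 of 11 neuron markers lay below 0 (median -0.23) and 12 of 12 oligodendrocyte markers above 0 (median 0.12), none called. The mean ratio of the 11 neuron markers was -0.47 in pair 1, against -0.09, -0.09 and -0.20 in the others. The part of these markers was not tested.

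In TAUmn 8 members were tested, with 5 above 0 and a median of 0.03. Calca had log2 levels of 10.36, 9.59, 10.65 and 11.57 in transgenic extracts and 9.83, 9.17, 9.86 and 10.46 in littermates. Each pair was higher in the transgenic mouse, by 0.52, 0.43, 0.78 and 1.12, and all 8 arrays lay above 0, though the groups overlapped. The dim Calca probe, not tested here, gave 0.01, -0.09, 0.10 and 0.05. The mean of 0.71 ± 0.31 (n = 4, limma adjusted p = 0.999) did not pass over all genes. It was 0.95 in the pairs of one scan (3 and 4) and 0.47 in those of the other (1 and 2). Pair 3, with a dye-swap correlation of -0.21 over probes, is among those whose direction is not settled. Pair 4 had a correlation of 0.08. Calcb also lay above 0 on 8 of 8 arrays, at 0.12, 0.65, 0.07 and 0.17 (limma adjusted p = 0.999). Slc5a7 gave 0.18, 0.22, -0.03 and 0.60. Neuron markers lay above 0 for 7 of 10 (median 0.08), oligodendrocyte precursor markers below 0 for 3 of 3 (median -0.28) and red cell markers below 0 for 2 of 2 (median -0.79), none called. Their part was not tested. Isl1 gave 0.48, -0.23, -0.17 and -0.23, and its mean of -0.04 was -0.21 without pair 1.

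In glia 5 members were tested in SODgl and 6 in TAUgl, with medians of 0.03 and 0.07. Slc5a7 in SODgl had ratios of 0.16, -0.11, 1.54 and 0.14, a mean of 0.43 (limma adjusted p = 0.38) that was 0.06 without pair 3. In that same pair the mean ratio of 10 neuron markers was 0.72, against -0.18, -0.36 and -0.10 in the others. In TAUgl its ratios were 0.31, 0.45, -0.37 and 0.78. Calca had 0.58, -0.95, 1.04 and -0.77 in SODgl and 1.49, -0.02, -0.16 and 0.32 in TAUgl, where the mean of 0.41 was 0.05 without pair 1, the pair with the lowest dye-swap correlation. Isl1 lay below 0 in every measured pair, at -0.16, -0.32 and -0.13 in SODgl and -0.24, -0.44, -0.07 and -0.02 in TAUgl (limma adjusted p = 0.433 and 0.441). Without the pairs whose arrays correlated below 0, Calca averaged 0.13 in SODgl and 0.15 in TAUgl, and Slc5a7 0.84 and 0.62. In TAUgl, 9 of 10 neuron markers lay above 0 (median 0.20) and 12 of 14 astrocyte markers below 0 (median -0.16). The part of these markers in the glia ratios was not tested.

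The third comparison asked whether the members' ratios differed between cell types or models. No member and no gene was called in any of the 4 differences (0% of 13991 genes for SODmn minus SODgl, 12160 for TAUmn minus TAUgl, 13627 for SODmn minus TAUmn and 10936 for SODgl minus TAUgl). The largest member difference was Calca in SODmn minus TAUmn, at -0.99 (95% interval -2.04 to 0.06, limma adjusted p = 0.573). Slc5a7 in SODmn minus SODgl was -0.67 (95% interval -1.34 to 0.01, adjusted p = 0.444). For Chat the interval of SODmn minus TAUmn ran from -0.10 to 0.11, which does not limit a change in Chat RNA with signals so close to background. At an unadjusted p of 0.05, 1609, 498, 1225 and 609 genes passed, in the same order, and no member did by its brightest probe. The dim Chodl probe, fitted among all probes, gave -0.28 in SODmn minus TAUmn (limma unadjusted p = 0.0178). In SODmn minus SODgl it gave -0.24 (limma unadjusted p = 0.0364), and neither was called. The labels do not say whether the same mice gave both cell types.

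Between the control groups of the 2 colonies (B6D2F1 at 16 weeks minus B6SJL at 8 weeks), no member was called, against 0.213% of 14585 genes in motor neurons and 0.141% of 11313 genes in glia. Calcb was -1.26 in motor neurons (limma adjusted p = 0.996), and -0.65 without its highest B6SJL extract. Mmp9 was -0.28 (limma adjusted p = 0.996), and these were the 2 members under an unadjusted p of 0.05. In the same extracts astrocyte markers were above 0 for 13 of 14 (median 0.38), interneuron markers for 15 of 16 (median 0.23) and red cell markers for 2 of 2 (median 0.88), none called, and their part was not tested. Chrna10, the nicotinic receptor subunit named above, was the listed receptor gene that passed, higher by 1.47 in B6D2F1 motor neurons (limma adjusted p = 0.01).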

How the data were processed

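Per the labels, 32 two-colour arrays held 16 littermate pairs in 4 comparisons. The deposited scanner files give spot intensity, read with Agilent Feature Extraction (8.5.1.1 per the submitters' processing notes; 9.5.1.1 in the glia files' headers). The authors' deposited value table holds log10 ratios of transgenic over control, used as an alternative. Gene symbols came from the glia arrays' annotation and RefSeq. Background was corrected by normexp (offset 50), dyes by loess, and the 2 arrays of a pair averaged. Levels were also scaled by Aquantile. The brightest probe stood for a gene. A gene was tested when measured in at least 4 of 8 extracts of the comparison (2 of 4 for colonies), with limma 3.58.1 in R 4.3.3, 16 pairs or 16 control extracts in 1 fit, and Benjamini-Hochberg adjustment at 0.05. All p-values are two-sided and measure only spread between these samples. Scripts were tested on simulated data. All members are named; other lists give genes by call, then size. The members and lists were chosen with earlier results of these data known. The number of arrays limits precision. Same-numbered pairs of different comparisons were checked for pairing: their deviations correlated between -0.16 and 0.32 for ratios and between -0.08 and 0.50 for control levels, not above 0.1 in every pair, so numbers were not taken as pairs.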

Additional observations from a re-analysis of the deposited data

Results flagged for a closer look

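Of 46 groups examined for 1 sample far from the others, 4 had one; chance gives about 1 in 20. The Slc5a7 ratio of SODgl pair 3 was 1.54, where the other pairs ran from -0.11 to 0.16. The Calcb ratio of TAUmn pair 2 was 0.65, against 0.07 to 0.17 in the others. The Isl1 ratio of TAUmn pair 1 was 0.48, against -0.23 to -0.17. The Calcb level of the SODmn control of pair 3 was 10.99, where the other 7 control motor neuron extracts ran from 7.35 to 8.91. None of 23 differences between comparisons had every pair of one on the opposite side of 0 from every pair of the other.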

How the results depend on the processing

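No member was called in a transgenic comparison, a difference or between colonies under any alternative run. The 6 members called between control motor neurons and glia remained 6 to 7 in number when 1 control extract was left out. They were 6 with a replicate block, and only 1, Mmp9, in the SOD1-G93A colony alone. These counts include Ache and Mmp9, which passed the filter of the main fit through motor neurons only. Across alternatives, 8 of 225 values of this comparison lost a call and 3 gained one. Slc5a7 lost its call in the TAU-P301L colony alone (0.75, adjusted p = 0.108) and in transgenic extracts (0.83, adjusted p = 0.0544). The replicate block gave 0 member calls in the differences and changed no other call. Signs changed in 40 of 464 values of transgenic comparisons, 44 of 471 of differences, 25 of 231 of colonies and 0 of 225 between cell types. Beyond 1 SD, with the cause not tested, Agilent's processed log ratios gave Chat -0.01 and Chodl -0.07 in TAUmn, Slc18a3 -0.06 in SODmn minus SODgl, Calcb -0.18 and Chat -0.14 in TAUmn minus TAUgl, and Chodl 0.10 in SODmn minus TAUmn. Median centring gave Chat -0.02 and the authors' value table Chodl -0.08 in TAUmn, and the mean over probes Chodl -0.11 in SODmn. Scan as a fixed block gave Calcb -0.30, Chodl -0.16 and Isl1 0.28 in SODgl minus TAUgl. Between colonies, processed signals gave Chodl 0.17 in glia and transgenic extracts gave Calca 0.65 in motor neurons. Over all genes, calls ranged from 0 to 1 in SODmn and TAUgl, 0 to 10 in SODgl, 624 to 6903 between cell types (4860 as reported) and 9 to 37 between colonies in motor neurons (31 as reported). A further 2 alternatives were chosen after seeing the data: all genes behind the variance estimate (SODmn 1, SODgl 10 genes called) and leaving out pairs with dye-swap correlations below 0 (no gene called).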

Other observations

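Over the 8 motor neuron pairs, 10 relations among the ratios of Slc5a7, Ache, Isl1, Calca and Calcb were computed, and none passed adjustment. Slc5a7 and Calca gave r = 0.67 (exact permutation p = 0.0769, adjusted 0.256) and rho = 0.81 (exact p = 0.0218, adjusted 0.109), with r = 0.76 without the 2 farthest pairs. Slc5a7 and Calcb gave r = 0.69 (exact p = 0.0578, adjusted 0.256) and rho = 0.83 (exact p = 0.0154, adjusted 0.109), with r = 0.79 without the 2 farthest. The 8 pairs pool both models: over the 4 pairs of SODmn and of TAUmn, r was 0.35 and 0.59 for Slc5a7 with Calca, and 0.88 and 0.09 for Slc5a7 with Calcb. Over the 4 pairs of each scan it was 0.90 and 0.87, and 0.61 and 0.93. Ache and Calca gave the highest r of the 10 relations, 0.76 (exact permutation p = 0.0491, adjusted 0.256), with rho = 0.43 (exact p = 0.299, adjusted 0.598), and r was 0.19 without the 2 farthest pairs, so it rests on those pairs.

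The genes whose levels were most like those of Chat over 28 extracts, after group means were subtracted, were H1f10 (r = 0.75), Tln1 (0.74), Chrne (0.74), Cyb5r4 (0.74) and Prss34 (0.73) among 9167 genes. Chat was well above background in only 13 of 32 extracts, so this likeness describes mostly dim signal.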
